A study of Homo sapiens with 15 samples.

Results

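The intergenic and antisense long noncoding RNAs comprised every gene of the deposited table whose symbol is LINC followed by digits, or ends in -AS followed by a digit, without LINC00657. The rule uses names only, and it found 197 of 12261 listed genes, or 1.61%. There were 47 LINC members and 150 antisense members. Both total RNA and RNA recovered with UPF1 were sequenced. The cells were HEK-293 Trex, a much used line of embryonic kidney origin that makes a transgene when doxycycline is added. The 15 libraries formed 5 groups of 3: RNA purified with CLIP-tagged UPF1 isoform 1 (UPF1-1 IP), RNA purified with CLIP-tagged UPF1 isoform 2 (UPF1-2 IP), and total RNA of the UPF1-1, UPF1-2 and GFP lines. All cells, GFP cells included, had received 200 ng/mL doxycycline hyclate, and each construct was carried by its own line. Effects of the proteins therefore cannot be told apart from differences between the lines, and GFP cells gave total RNA only.

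Long noncoding RNAs are transcripts without a long open reading frame. LINC symbols are given to RNAs that lie between other genes, and -AS symbols to RNAs transcribed from the strand opposite a gene or away from its promoter. UPF1 is an RNA helicase that binds RNA with little sequence preference and is required for nonsense-mediated decay (NMD), the removal of translated RNAs whose stop codon is read as premature. Spliced noncoding RNAs that reach ribosomes often hold short open reading frames with early stop codons, and the host RNAs of small nucleolar RNAs (snoRNAs) are well known NMD targets. The UPF1 isoforms differ in the length of a regulatory loop in the helicase region, which is longer in UPF1-1.

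Values are TPM, the share of all transcripts in a library after correction for length, that were multiplied in each library by a factor that made the median listed gene equal, and are called scaled TPM. The listed genes held 12.2 to 19.0% of the TPM scale in total RNA and 44.7 to 69.9% in the IPs. UPF1, the induced gene, had 115, 106 and 152 scaled TPM in UPF1-1 total RNA and 95.4, 89.8 and 111 scaled TPM in UPF1-2 total RNA, against 4.11, 4.39 and 6.94 scaled TPM in GFP total RNA. Replicate 3 stood apart from replicates 1 and 2 in every group, so differences were formed within the replicate number. Of 7 markers of the line 4 were listed, with VIM at 148 and KRT18 at 26.8 scaled TPM, and none of 5 fibroblast, 5 leukocyte and 3 hepatocyte markers was listed. TPM carries no read depth, so the depth of a library is unknown. The labels do not say that the library kit kept strand, and without strand the reads of an antisense RNA and its partner cannot be told apart where they overlap. In bulk samples fewer cells that hold an RNA and less RNA per cell cannot be told apart.

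Most of these RNAs were scarce. The median member had 0.894 scaled TPM over the 9 total RNA libraries, against 1.95 for all listed genes, and 108 members (54.8%) were under 1 scaled TPM, against 30.4% of all listed genes. At the level of the authors' estimated counts the median member had 141 and the median listed gene 765, and 76 members had under 100. LINC members had a median of 1.28 and antisense members of 0.838 scaled TPM. A minority was abundant: 11 members reached 5 scaled TPM and 4 reached 10. The 2 most abundant held 44.6% of the members' summed level.

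FAM211A-AS1, now named SNHG29 as a snoRNA host, was the most abundant member, with 161, 153 and 120.1 scaled TPM in UPF1-1 total RNA, 209.9, 181 and 127 in UPF1-2 total RNA and 158, 148 and 106 in GFP total RNA. LINC00493, now SMIM26 and annotated as coding a small mitochondrial protein, came next with 113, 115 and 57.2 scaled TPM in UPF1-1, 116, 95.9 and 47.2 in UPF1-2 and 86.6, 90.5 and 42.9 in GFP total RNA. LINC00998, now SMIM30 and annotated as coding a small membrane protein, had 26.6, 28.3 and 6.72 scaled TPM in UPF1-1, 28.3, 28.0 and 11.6 in UPF1-2 and 32.1, 29.4 and 8.28 in GFP total RNA. In each of these 3 members replicate 3 was the lowest of every group, and the levels of the lines overlapped widely. NCBP2-AS2, now NCBP2AS2, was even, at 11.3 ± 0.529 scaled TPM in UPF1-1, 10.9 ± 0.729 in UPF1-2 and 10.3 ± 0.253 in GFP total RNA (SD, n = 3 each). After a gap came, among others, TRIM52-AS1 (6.81), LINC00662 (6.37), FGD5-AS1 (6.26), LINC00116 (5.59), ENTPD1-AS1 (5.22) and OIP5-AS1 (5.11), as mean scaled TPM over the total RNA libraries. Neighbours among these 6 did not differ beyond their spread between libraries.

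**Figure D1:**
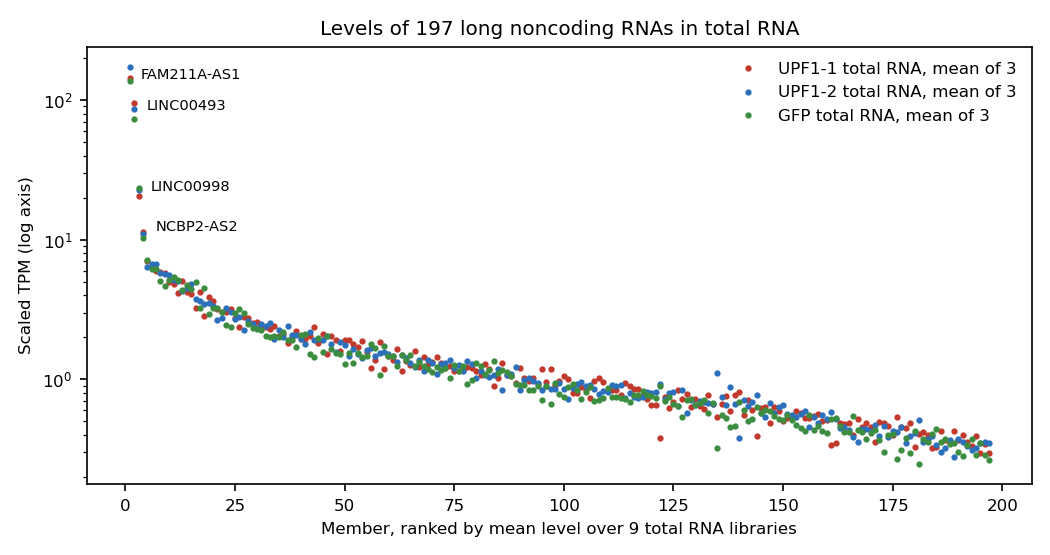
Mean scaled TPM of each of the 197 members in total RNA of the UPF1-1, UPF1-2 and GFP lines (n = 3 each), ordered by the mean over 9 libraries, on a log axis without error bars. FAM211A-AS1 and LINC00493 stand above the rest, and 108 members lie under 1 scaled TPM.

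Names have moved since the table was made. A current symbol was found for 194 members, 53 of which now carry another name. Of 190 members with a RefSeq biotype, 174 were long noncoding RNAs, 12 were protein coding, 3 were transcribed pseudogenes and 1 was an antisense RNA. The 12 coding members include the genes of small proteins: LINC00493 (SMIM26), LINC00998 (SMIM30), LINC00116 (MTLN, mitoregulin, of the inner mitochondrial membrane), TOPORS-AS1 (SMIM27) and CEBPZ-AS1 (CEBPZOS). Another 23 members now carry a -DT name, given to transcripts that diverge from the promoter of a neighbouring gene. Symbols below are those of the table.

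The first comparison asked which of these RNAs differed in total RNA of cells with extra UPF1-1. In UPF1-1 against GFP total RNA 15 members were higher (7.61%) and 6 lower (3.05%), by limma at an adjusted p below 0.05. Over all listed genes 6.97% were higher and 5.42% lower, so the members' share of rises was near the background. The members' median log2 difference was 0.07, against 0.00 for all listed genes. The changes were small, at most 0.58 up and 0.65 down on the log2(scaled TPM + 0.5) scale.

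LINC00909, now ZNF407-AS1, had 2.83, 2.58 and 1.72 scaled TPM in UPF1-1 total RNA, against 1.62, 1.67 and 1.03 scaled TPM in GFP total RNA. No UPF1-1 library was below a GFP library, and the rise was 0.56 ± 0.08 (SE), at 0.0038 for limma's adjusted p. RNASEH1-AS1, now RNASEH1-DT and divergent to the gene of an enzyme that cuts RNA in RNA:DNA hybrids, had 2.01, 2.01 and 1.71 scaled TPM in UPF1-1 and 1.47, 1.28 and 1.07 scaled TPM in GFP total RNA. These groups did not overlap either, and the RNA rose by 0.45 ± 0.08 (SE) (limma adjusted p 0.012). SAP30L-AS1 showed the largest rise, 0.58 ± 0.13 (SE), with 1.59, 2.55 and 1.4 scaled TPM in UPF1-1 and 1.34, 1.19 and 0.678 scaled TPM in GFP total RNA (limma adjusted p 0.023). Its authors' estimated count averaged 10.6, so few reads stand behind it, and its rises within replicates 1, 2 and 3 were 0.19, 0.85 and 0.69. LINC00493 (SMIM26) rose by 0.38 ± 0.08 (SE), where limma gave an adjusted p of 0.022. Its groups overlapped, but within replicates 1, 2 and 3 UPF1-1 stood above GFP by 0.38, 0.35 and 0.41. LINC00339 rose by 0.33 ± 0.06 (SE) and LINC00263 (now OLMALINC) by 0.33 ± 0.06 (SE), each with a limma adjusted p of 0.015. EPB41L4A-AS1, a snoRNA host, rose by 0.25 ± 0.06 (SE) (limma adjusted p 0.034).

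Of the other rises, which were named after their values were seen, CTBP1-AS2 (now CTBP1-DT, beside a corepressor gene) rose by 0.50, ATP6V0E2-AS1 by 0.48, ZNF503-AS2 by 0.41, TRAF3IP2-AS1 by 0.30, NOP14-AS1 by 0.30, ARHGAP5-AS1 by 0.29 and LOXL1-AS1 by 0.28. Of the 23 members with a -DT name 3 rose (13.0%), CTBP1-AS2 and RNASEH1-AS1 among them, and none fell. Over all listed genes 6.97% rose and 5.42% fell, and so few members cannot set the group apart. In a list of snoRNA host RNAs that includes EPB41L4A-AS1, but not FAM211A-AS1 or LINC00338, 12 were listed, of which 6 rose and 1 fell. The shares over all listed genes were again 6.97% and 5.42%. Without the replicate block 0 of the 12 passed by limma. EPB41L4A-AS1 was the only member among them, and the list was chosen with earlier results known, so its counts are a description only. HOXB-AS3, from the HOXB homeobox cluster, had 3.11, 4.03 and 2.63 scaled TPM in UPF1-1, against 5.44, 4.85 and 4.63 scaled TPM in GFP total RNA. Its groups did not overlap, and it fell by 0.56 ± 0.13 (SE) (limma adjusted p 0.028). NUTM2A-AS1 fell by 0.45, CIRBP-AS1, opposite the gene of a cold-inducible RNA-binding protein, by 0.44, ZSCAN16-AS1 by 0.40 and LINC00415 by 0.34. LINC00461, under 1 scaled TPM and named after its value was seen, fell by 0.65.

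These calls rested on the pairing by replicate number. Without the replicate block no member passed by limma, against 0.0816% of all listed genes higher and 0.0571% lower, and 17 had an unadjusted p below 0.05. Leaving out replicate 1 left 7 higher and 0 lower, leaving out replicate 2 left none, and leaving out replicate 3 left 4 higher and 3 lower. In the authors' deposited table no member had a sleuth q-value below 0.05 in this comparison, and the lowest was 0.52, for ATP6V0E2-AS1.

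**Figure D2:**
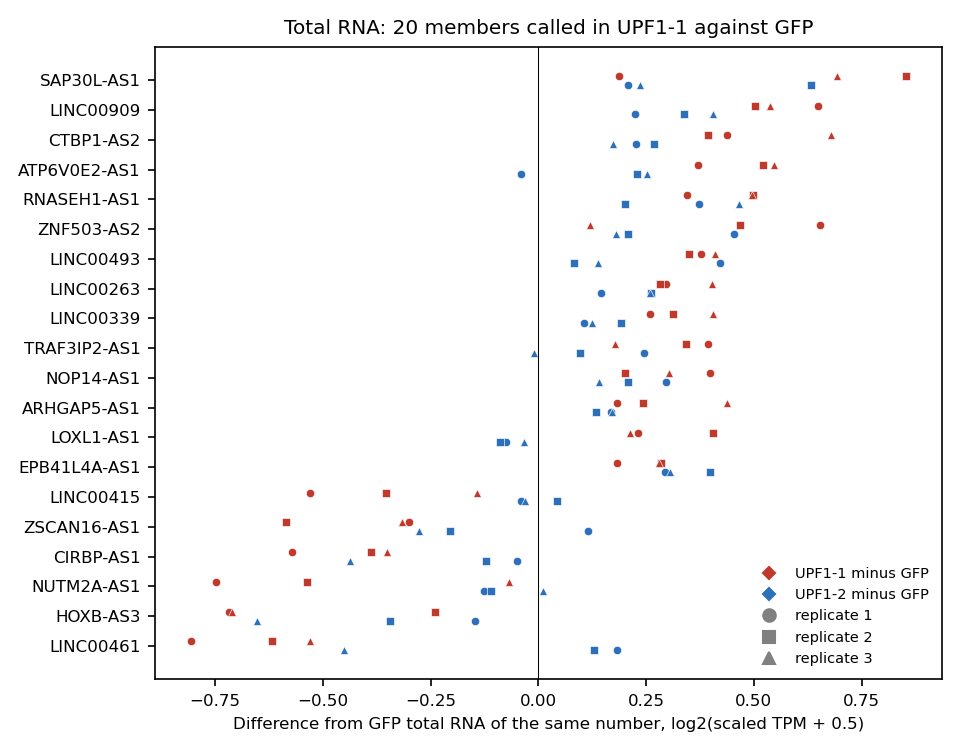
Difference from GFP total RNA of the same replicate number for 20 of the 21 members called in UPF1-1 against GFP total RNA, on the log2(scaled TPM + 0.5) scale, with 1 point for each replicate of UPF1-1 (red) and UPF1-2 (blue). All 3 UPF1-1 points lie on the side of the call for each member shown, and no UPF1-2 difference passed the threshold.

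The promoters of the 3 members with the largest rises among those of at least 1 scaled TPM are shown, so that the start regions of RNAs that rose can be compared. Each runs 5′ to 3′ on the strand of the RNA, from 250 bases before to 50 bases after the RefSeq start on GRCh38.p14, with CCAAT boxes found on either strand in capitals. SAP30L-AS1 lies at chr5:154445773-154446072 on the minus strand, LINC00909 at chr18:74597786-74598085 on the minus strand and RNASEH1-AS1 at chr2:3558136-3558435 on the plus strand.
SAP30L-AS1: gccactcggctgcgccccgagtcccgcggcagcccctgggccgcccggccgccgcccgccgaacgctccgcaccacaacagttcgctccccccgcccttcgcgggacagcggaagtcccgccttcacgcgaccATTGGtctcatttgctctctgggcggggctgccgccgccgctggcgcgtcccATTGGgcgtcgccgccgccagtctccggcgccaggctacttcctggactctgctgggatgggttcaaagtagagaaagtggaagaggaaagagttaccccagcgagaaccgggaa
LINC00909: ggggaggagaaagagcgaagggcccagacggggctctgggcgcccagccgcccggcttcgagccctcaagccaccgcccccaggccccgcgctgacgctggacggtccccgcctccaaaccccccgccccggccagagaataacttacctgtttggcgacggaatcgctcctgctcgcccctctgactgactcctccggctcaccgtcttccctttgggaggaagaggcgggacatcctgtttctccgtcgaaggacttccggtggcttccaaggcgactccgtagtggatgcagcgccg
RNASEH1-AS1: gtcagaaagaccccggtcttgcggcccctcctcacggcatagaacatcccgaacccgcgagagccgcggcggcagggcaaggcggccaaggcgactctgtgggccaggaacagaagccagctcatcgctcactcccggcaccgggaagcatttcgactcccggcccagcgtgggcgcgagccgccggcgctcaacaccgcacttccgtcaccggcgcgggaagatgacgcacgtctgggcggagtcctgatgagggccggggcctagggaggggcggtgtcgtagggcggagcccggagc
The SAP30L-AS1 promoter held 2 CCAAT matches and the other promoters shown held none. Of the 15 risen members 13 had a promoter in the table. CCAAT was in 6 of these 13, in 41.7% of the 163 members with a promoter and in 34.6% of all 35116 promoters. TGATGNAA, a form of the element bound by ATF4 with a CEBP protein, was in none of the 13, in 2.45% of the members' promoters and in 3.62% of all. Both motifs were searched on both strands of the 300 bases, and a match is a description only.

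In UPF1-2 against GFP total RNA, which shares the GFP libraries, no member passed by limma, and 33 had an unadjusted p below 0.05. Over all listed genes 0.0734% were higher and 0.0408% lower. Without the block the count was also 0 by limma, with 10 at an unadjusted p below 0.05 and a background of 0.0163% higher and 0.00816% lower, and in the authors' deposited table no member had a q-value and 1 had a p-value below 0.05. LINC00909 differed by 0.32 ± 0.08 (SE) in this comparison and SAP30L-AS1 by 0.36 ± 0.13 (SE), with limma adjusted p of 0.21 and 0.35. ZNRD1-AS1, now POLR1HASP, had 1.13, 0.828 and 0.681 scaled TPM in UPF1-2 total RNA and 0.638, 0.286 and 0.434 scaled TPM in GFP total RNA, a difference of 0.54 ± 0.10 (SE) that did not pass (limma adjusted p 0.091).

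Set directly against each other, UPF1-1 total RNA held 2 members higher and 2 lower than UPF1-2 total RNA, by limma. The background over all listed genes was 3.73% higher and 2.23% lower, above the members' shares of 1.02% each. TTC28-AS1 had 2.16, 1.96 and 1.3 scaled TPM in UPF1-1 and 2.79, 2.81 and 1.64 scaled TPM in UPF1-2 total RNA, and the difference was -0.33 ± 0.07 (SE) (limma adjusted p 0.034). The other 3 were under 1 scaled TPM and are named after their values were seen. LOXL1-AS1 was higher by 0.35 and ATP6V0E2-AS1 by 0.33, without overlap between the lines, and LINC00641 was lower, at a difference of -0.35. None of the 4 passed without the block, where 0.0163% of all listed genes were higher, or when replicate 1, 2 or 3 was left out.

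The IPs asked which RNAs were recovered with UPF1 above or below their share of total RNA. The libraries held no IP from GFP cells, so RNA held by UPF1 cannot be told apart from RNA carried along without it. Recovery here is the log2 difference of IP from total RNA of the same line and replicate, relative to the median listed gene. With both isoforms fewer members were higher, and more were lower, than among all listed genes. With UPF1-1 30 members were higher in the IP (15.2%) and 101 lower (51.3%), against 33.7% and 38.1% of all listed genes. With UPF1-2 21 were higher (10.7%) and 117 lower (59.4%), against 34.1% and 38.6%. The median recovery of the members was -0.28 with UPF1-1 and -0.37 with UPF1-2, and that of all listed genes was -0.03 with each. The LINC and antisense members had similar shares: 24 of 47 LINC and 77 of 150 antisense members were lower with UPF1-1, and 27 and 90 with UPF1-2.

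Lower here means relative to the median gene. Without scaling the UPF1-1 IPs held 173 members higher and 6 lower, and the UPF1-2 IPs 171 higher and 6 lower, and the median listed gene was itself higher in the IP by 2.37 with UPF1-1 and 2.35 with UPF1-2. The members' unscaled medians were 1.79 and 1.57. Of the members called lower, 87 of 101 with UPF1-1 and 102 of 117 with UPF1-2 were above 0 without scaling. Without the block 13 were higher and 77 lower with UPF1-1, against 19.9% and 27.4% of all listed genes, and 8 higher and 91 lower with UPF1-2, against 21.1% and 27.6%. Leaving out replicate 1 or 2 left 18 or 19 higher with UPF1-1 and 10 or 11 higher with UPF1-2.

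The isoforms gave similar recoveries. Over the 197 members Pearson's r between the recovery with UPF1-1 and with UPF1-2 was 0.94, a description across genes, which share their libraries and are not independent replicates. Lower with both isoforms were 94 members, higher with both 17 and called with neither 42. OIP5-AS1, TTC28-AS1 and FGD5-AS1 were higher with UPF1-1 and lower with UPF1-2, and no member was the reverse. Joint calls and r over all 12261 listed genes are not given here. Of those genes only 3459 were not called with UPF1-1 and 3345 with UPF1-2. Calls with both isoforms are thus common in the whole table. The other 384 listed genes with a RefSeq long noncoding biotype were also more often lower, and less often higher, than all listed genes. For UPF1-1 65 were higher (16.9%) and 218 lower (56.8%), against 33.7% and 38.1%. For UPF1-2 52 were higher (13.5%) and 248 lower (64.6%), against 34.1% and 38.6%. The 4 listed members of a list of nuclear RNAs, MALAT1, NEAT1, RMRP and RN7SK, were lower with both isoforms, between -1.02 for NEAT1 and -5.46 for RN7SK with UPF1-1, and between -1.16 and -5.21 with UPF1-2.

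**Figure D3:**
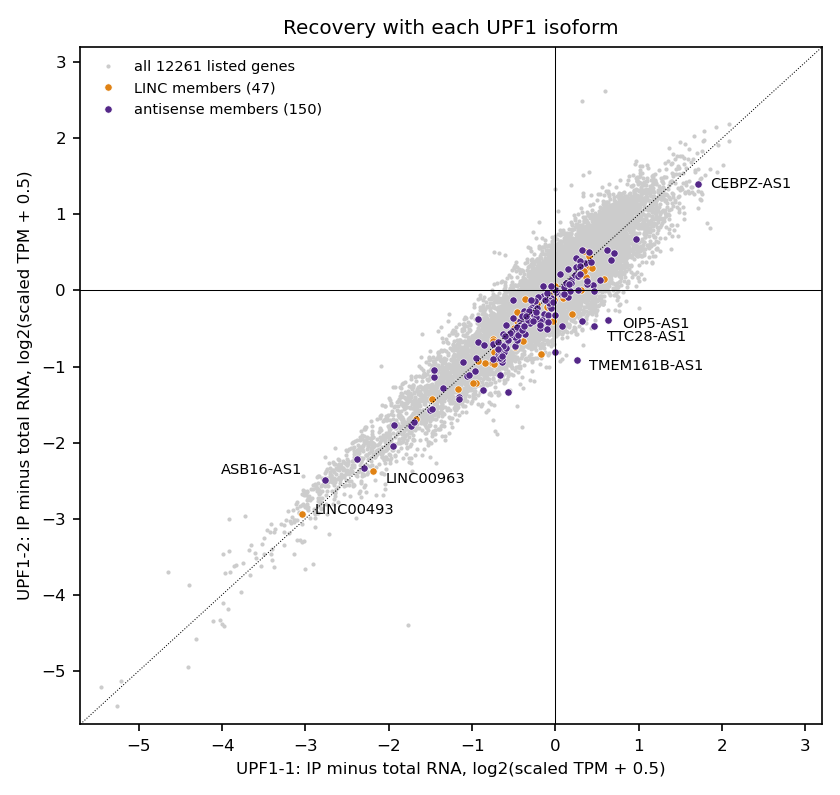
Recovery (IP minus total RNA, log2 of scaled TPM + 0.5) with UPF1-1 on the x axis and UPF1-2 on the y axis for all 12261 listed genes (grey), LINC members (orange) and antisense members (purple), as means over 3 replicates, with a dotted line of equal recovery. Most members lie below 0 on both axes, and OIP5-AS1, TTC28-AS1 and TMEM161B-AS1 lie furthest below the line.

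Among the members recovered least was LINC00493 (SMIM26), with 12.6, 13.6 and 6.89 scaled TPM in the UPF1-1 IP, against 113, 115 and 57.2 scaled TPM in UPF1-1 total RNA. In the UPF1-2 IP it had 12.5, 12.9 and 6.43 scaled TPM, against 116, 95.9 and 47.2 scaled TPM in UPF1-2 total RNA. No IP library reached a total RNA library, and the RNA fell by 3.04 ± 0.09 (SE) with UPF1-1 and by 2.93 ± 0.09 (SE) with UPF1-2, with limma adjusted p of 6.5e-08 and 9.6e-08. ASB16-AS1 had 0.0502, 0.0258 and 0 scaled TPM in the UPF1-1 IP, against 3.26, 4.27 and 2.03 scaled TPM in UPF1-1 total RNA, and 0.0250, 0.0878 and 0.0457 in the UPF1-2 IP, against 3.42, 2.66 and 1.95 in UPF1-2 total RNA. It was at or near 0 in every IP library, replicate 3 of UPF1-1 being listed at 0. TOPORS-AS1 (SMIM27) fell by 2.38 ± 0.17 (SE) with UPF1-1 and by 2.22 ± 0.17 (SE) with UPF1-2, LIPE-AS1 by 2.30 and 2.34, LINC00963 by 2.19 and 2.37, and LIMD1-AS1 by 1.94 and 2.05. All 6 RNAs had a level in the IPs below that in the total RNA of every library of the same line. The abundant TRIM52-AS1 fell by 1.50 ± 0.10 (SE) with UPF1-1 and by 1.57 ± 0.10 (SE) with UPF1-2. LINC00662 fell by 0.71 ± 0.12 (SE) and by 0.92 ± 0.12 (SE).

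CEBPZ-AS1, now CEBPZOS and annotated as coding a small mitochondrial protein, was the member recovered most. It had 9.59, 10.0 and 6.79 scaled TPM in the UPF1-1 IP, against 2.67, 2.88 and 1.56 scaled TPM in UPF1-1 total RNA, and 8.65, 9.36 and 6.74 scaled TPM in the UPF1-2 IP, against 2.67, 3.24 and 2.5 scaled TPM in UPF1-2 total RNA. Every IP library was above every total RNA library, and the RNA rose by 1.71 ± 0.07 (SE) with UPF1-1 (limma adjusted p 3.1e-07) and by 1.40 ± 0.07 (SE) with UPF1-2 (limma adjusted p 9.6e-07). RPA3-AS1, now the coding gene UMAD1, had 3.6, 3.82 and 2.37 scaled TPM in the UPF1-1 IP, against 1.85, 1.68 and 0.841 in UPF1-1 total RNA, and 3.17, 3.33 and 1.86 in the UPF1-2 IP, against 1.49, 1.86 and 1.23 in UPF1-2 total RNA. It rose by 0.96 ± 0.10 (SE) and by 0.68 ± 0.10 (SE), with no overlap in the UPF1-1 line, while in the UPF1-2 line the lowest IP and the highest total RNA library were equal at the digits given. TP73-AS1, opposite the gene of a p53 family transcription factor, rose by 0.62 ± 0.07 (SE) with UPF1-1 and by 0.54 ± 0.07 (SE) with UPF1-2. The snoRNA host LINC00338 (now SNHG20) rose by 0.41 ± 0.14 (SE) and by 0.46 ± 0.14 (SE). Another snoRNA host, EPB41L4A-AS1, rose by 0.53 ± 0.08 (SE) with UPF1-1, while with UPF1-2 its recovery was 0.14 ± 0.08 (SE) and did not pass (limma adjusted p 0.14). The 12 listed snoRNA hosts of the list used above went both ways, as did all listed genes. With UPF1-1 5 were higher and 4 lower, at recoveries from -2.26 to 1.12. Of all listed genes 33.7% were higher and 38.1% lower. With UPF1-2 4 were higher and 6 lower, at recoveries from -2.55 to 0.88. Here 34.1% of all listed genes were higher and 38.6% lower. So few hosts cannot set the list apart from these shares. LINC00888 rose by 0.59 ± 0.10 (SE) with UPF1-1. LINC00152 (now CYTOR) rose by 0.52 ± 0.15 (SE) and LBX1-AS1 by 0.43 ± 0.12 (SE) with UPF1-2. The differences between the isoforms of these 4 members in recovery did not pass, at 0.39 for EPB41L4A-AS1, 0.44 for LINC00888, -0.17 for LINC00152 and -0.18 for LBX1-AS1.

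The 12 members now annotated as protein coding went both ways, 5 rising and 6 falling with UPF1-1, 3 rising and 7 falling with UPF1-2. CEBPZ-AS1 and RPA3-AS1 stood at one end and LINC00493 and TOPORS-AS1 at the other. All listed genes went both ways too, 33.7% higher and 38.1% lower with UPF1-1, 34.1% and 38.6% with UPF1-2. So few coding members cannot be set apart from these shares. LINC00116 (MTLN) fell by 0.96 ± 0.11 (SE) with UPF1-1 and by 1.22 ± 0.11 (SE) with UPF1-2, and NCBP2-AS2 by 0.39 ± 0.07 (SE) and by 0.40 ± 0.07 (SE). LINC00998 (SMIM30) had a recovery of 0.20 ± 0.10 (SE) with UPF1-1, which did not pass (limma adjusted p 0.1), and fell by 0.31 ± 0.10 (SE) with UPF1-2. The difference in recovery between the isoforms passed for 0 of the 12. Of the 23 members with a -DT name UPF1-1 IPs held 2 higher and 8 lower, and UPF1-2 IPs 2 higher and 11 lower. For UPF1-1 the lower share, 34.8%, was near the 38.1% of all listed genes, and the higher share was 8.70%, against 33.7%. For UPF1-2 the shares were 8.70% higher and 47.8% lower, against 34.1% and 38.6%.

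Other members chosen by name or for their level did not all move one way. CDKN2B-AS1 (ANRIL, of the CDKN2A and CDKN2B tumour suppressor locus) had recoveries of 0.27 ± 0.12 (SE) with UPF1-1 and 0.19 ± 0.12 (SE) with UPF1-2, neither of which passed, with limma adjusted p of 0.062 and 0.17. FAM211A-AS1, the most abundant member, had recoveries of 0.18 ± 0.11 (SE) and 0.13 ± 0.11 (SE) that did not pass either. TMPO-AS1 fell by 1.35 ± 0.13 (SE) with UPF1-1 and by 1.28 ± 0.13 (SE) with UPF1-2. LINC00467 rose by 0.28 ± 0.08 (SE) with UPF1-1 and was not called with UPF1-2. ENTPD1-AS1 fell by 0.31 ± 0.10 (SE) with UPF1-2 and was not called with UPF1-1. For neither LINC00467 nor ENTPD1-AS1 did the difference in recovery between the isoforms pass. The scarce DDX11-AS1 and GABPB1-AS1 averaged 0.347 and 0.834 scaled TPM in total RNA, and MCM3AP-AS1 averaged 0.554. With UPF1-1 and UPF1-2 the recoveries of DDX11-AS1 were -0.38 and -0.47, and those of GABPB1-AS1 -0.43 and -0.40, all called lower. MCM3AP-AS1 was called higher with UPF1-1, at 0.38 ± 0.07 (SE). With UPF1-2 its recovery of 0.13 ± 0.07 (SE) did not pass (limma adjusted p 0.11), and neither did its difference between the isoforms (limma adjusted p 0.13). LINC01420 and PSMA3-AS1, also on the list of names, were not analysed here.

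Transcript length moved with recovery. A length index was computed as the authors' estimated count per TPM, relative to the median listed gene, and had a value for 194 of the 197 members (98.5%). The members' median index was 0.425, so the counted transcripts were shorter than those of most listed genes. For the other listed genes with a RefSeq long noncoding biotype the median index was 0.337. Of the 194 members 126 fell in the shortest of 3 equal length bins of the table, 56 in the middle and 12 in the longest. With UPF1-1 the members' median recovery was -0.42, -0.06 and 0.23 in these bins, against -0.59, -0.00 and 0.26 for all listed genes in them. With UPF1-2 it was -0.48, -0.14 and 0.01, against -0.61, 0.03 and 0.27. Pearson's r between recovery and the log of the index was 0.48 with UPF1-1 and 0.44 with UPF1-2 over 194 members, and 0.51 and 0.54 over 12215 listed genes, as descriptions across genes of the same libraries. The part of length in the lower recovery was not tested. LINC00493 had an index of 0.0989, ASB16-AS1 of 0.0760 and LINC00963 of 0.0241, while CEBPZ-AS1 had 1.01, TP73-AS1 2.19 and OIP5-AS1 3.04. TMPO-AS1, which fell with both isoforms, had an index of 1.3, in the middle bin.

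**Figure D4:**
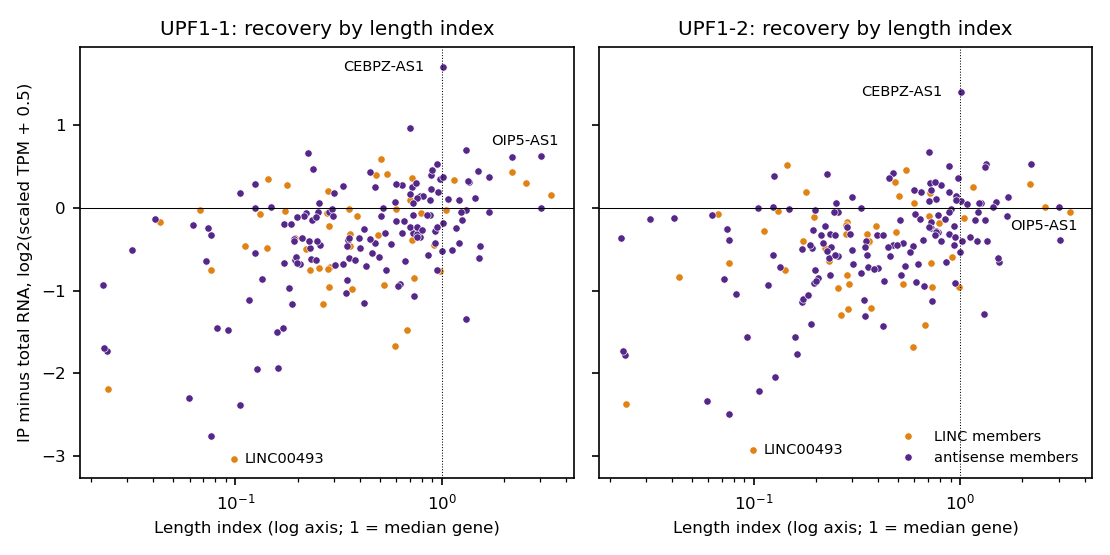
Recovery (IP minus total RNA, log2 of scaled TPM + 0.5, mean over 3 replicates) with UPF1-1 (left) and UPF1-2 (right) against the length index on a log axis, with 1 point for each of 194 members (LINC orange, antisense purple) and a dotted line at the median listed gene. The lowest recoveries, LINC00493 among them, lie at indexes well under 1, and CEBPZ-AS1 lies near 1.

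The last comparison asked whether recovery differed between the isoforms, as recovery with UPF1-1 minus recovery with UPF1-2. By limma 6 members (3.05%) were recovered more with UPF1-1 and 0 more with UPF1-2, against 4.32% and 5.77% of all listed genes. Recovery with UPF1-1 was above that with UPF1-2, whether it passed or not, for 133 of 197 members and 5440 of 12261 listed genes. The median difference was 0.08 for the members and -0.04 for all listed genes. The other 384 listed genes with a RefSeq long noncoding biotype were similar to the members, with 249 above and a median of 0.07. OIP5-AS1, the RNA called Cyrano that carries a conserved site for the microRNA miR-7, had 8.55, 8.28 and 6.08 scaled TPM in the UPF1-1 IP, against 5.25, 5.47 and 3.59 scaled TPM in UPF1-1 total RNA. It had 4.03, 4.34 and 3.14 scaled TPM in the UPF1-2 IP, against 5.2, 5.62 and 4.62 scaled TPM in UPF1-2 total RNA. All 3 UPF1-1 IPs were above all UPF1-1 total RNA libraries, and each UPF1-2 IP was below its own total RNA. The difference in recovery was 1.02 ± 0.10 (SE), with a limma adjusted p of 0.018, and within replicates 1, 2 and 3 it was 0.99, 0.89 and 1.18. TTC28-AS1 had 2.91, 3.48 and 1.79 scaled TPM in the UPF1-1 IP, against 2.16, 1.96 and 1.3 in UPF1-1 total RNA, and 1.83, 2.06 and 0.960 in the UPF1-2 IP, against 2.79, 2.81 and 1.64 in UPF1-2 total RNA. It too was above total RNA with UPF1-1 and below it with UPF1-2 in each replicate, a difference of 0.94 ± 0.12 (SE), to which its lower UPF1-1 total RNA level contributes by construction. FGD5-AS1, with 7.51, 8.66 and 6.28 scaled TPM in the UPF1-1 IP, against 6.17, 6.87 and 4.76 in UPF1-1 total RNA, and 4.69, 5.55 and 4.58 in the UPF1-2 IP, against 6.25, 7.81 and 6.0 in UPF1-2 total RNA, differed by 0.71 ± 0.09 (SE).

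RAP2C-AS1 and SETD5-AS1 were near their total RNA level with UPF1-1, at recoveries of -0.00 and 0.08, and below it with UPF1-2, at -0.81 and -0.47. Their differences were 0.81 ± 0.11 (SE) and 0.54 ± 0.10 (SE), with limma adjusted p of 0.018 and 0.019. TMEM161B-AS1, under 1 scaled TPM and named after its value was seen, had the largest difference, 1.17 ± 0.30 (SE) (limma adjusted p 0.048). It had 0.608, 0.546 and 0.375 scaled TPM in the UPF1-1 IP, against 0.600, 0 and 0.575 in UPF1-1 total RNA, where replicate 2 was listed at 0, and 0.183, 0.260 and 0.0762 in the UPF1-2 IP, against 0.836, 0.968 and 0.522 in UPF1-2 total RNA. Its difference was 0.98, 2.01 and 0.53 within replicates 1, 2 and 3. None of the 6 passed without the block, where 4 members had an unadjusted p below 0.05, or without scaling. Leaving out replicate 1 or replicate 2 left none, and leaving out replicate 3 left 6, of which 4 were among these. LINC00657 (NORAD), an abundant cytoplasmic long noncoding RNA outside the rule, had a difference of 1.23 ± 0.16 (SE) in the same fit.

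**Figure D5:**
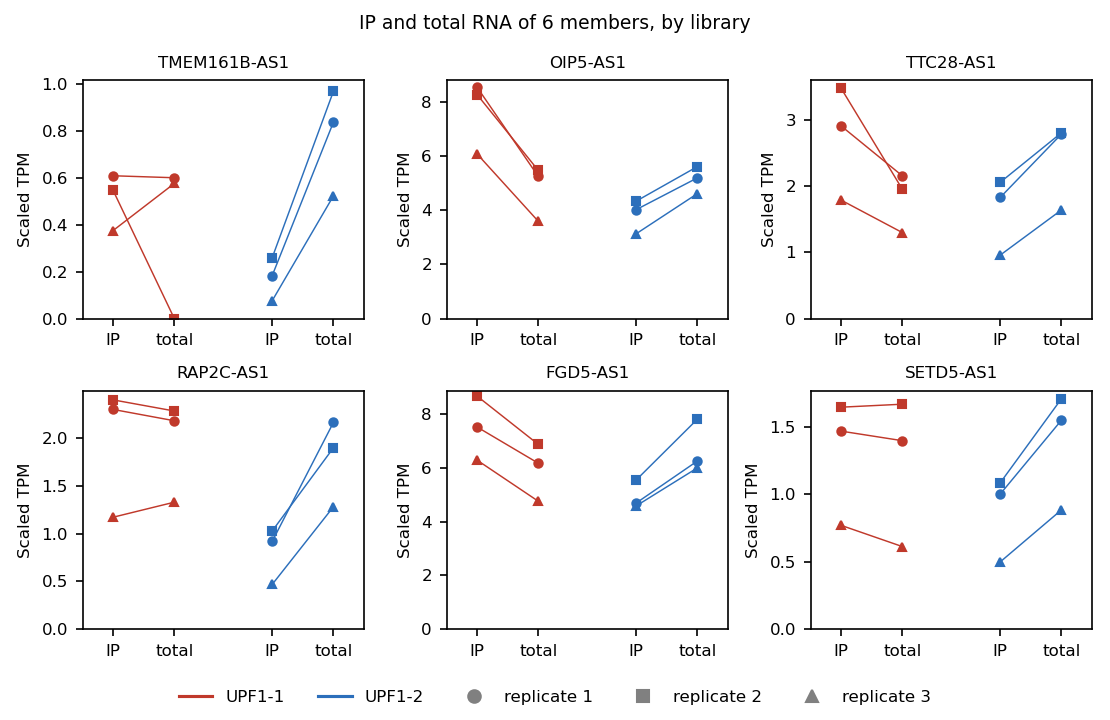
Scaled TPM in IP and total RNA, in that order from left to right, of UPF1-1 (red) and UPF1-2 (blue) for the 6 members with a called isoform difference in recovery. Lines join the IP and the total RNA of the same replicate, and each panel has its own axis from 0. All UPF1-2 lines go up from IP to total RNA, while those of OIP5-AS1, TTC28-AS1 and FGD5-AS1 go down with UPF1-1.

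Antisense RNAs were set beside the gene whose symbol they carry, which was listed for 121 of the 150. The partner had the higher level in 91 pairs, with medians of 0.834 scaled TPM for the antisense RNAs and 2.11 for the partners. Median recovery was -0.28 for the antisense RNAs and 0.08 for the partners with UPF1-1, and -0.38 and 0.02 with UPF1-2. The antisense RNA was recovered less than its partner in 78 pairs with UPF1-1 and in 90 pairs with UPF1-2. The pairs were not matched for length. The median length index was 0.458 for all antisense members and 1.10 for listed protein coding genes outside the members. The part of length in the contrasts between antisense RNAs and partners was not tested. Recoveries of the pair were unrelated as a description, with Pearson's r of -0.05 over 121 pairs with each isoform. Where both were called, in 60 pairs with UPF1-1 and 64 with UPF1-2, they went opposite ways in 29 and 32.

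Opposite examples were large. TMPO-AS1 fell by 1.35 ± 0.13 (SE) with UPF1-1 while TMPO, the gene of a nuclear lamina protein, rose by 1.71 ± 0.08 (SE). LIMD1-AS1 fell by 1.94 and LIMD1 rose by 0.91, and TOPORS-AS1 fell by 2.38 while TOPORS rose by 0.77. In the other direction RPA3-AS1 rose by 0.96 ± 0.10 (SE) and RPA3, a subunit of the single-stranded DNA-binding complex RPA, fell by 2.02 ± 0.07 (SE). CEBPZ-AS1 and CEBPZ rose together, by 1.71 and 0.72. With UPF1-2 the recoveries of TMPO-AS1 and TMPO were -1.28 and 1.30, and those of RPA3-AS1 and RPA3 were 0.68 and -2.04. OIP5, the partner of OIP5-AS1, had recoveries of 0.14 ± 0.08 (SE) with UPF1-1 and 0.11 ± 0.08 (SE) with UPF1-2 that did not pass. In UPF1-1 against GFP total RNA both RNAs of a pair were called in 2 pairs.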

How the data were processed

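The deposited table held TPM of 12261 genes, each with 1 Ensembl transcript, in 15 libraries, per the file headers. RNA was depleted of ribosomal RNA before library preparation, per the labels' protocols. The submitters' processing notes name hg19 as the build, and kallisto, sleuth and cutadapt as tools, with no version. The authors' table also held deposited IP to total ratios, log2 ratios of mean TPM and sleuth p-values and q-values, per the file headers. The deposited sleuth effects and mean estimated counts were read as natural log values, sleuth's usual scale, which the headers do not state. The lowest mean in any total RNA group was 0.25 TPM among listed genes, so RNAs below it were not analysed here.

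TPM were scaled to equal library medians, a pseudocount of 0.5 was added, and log2 values of all 12261 genes, without a filter on low values, were fitted with limma 3.58.1 (trend) in R 4.3.3. Of the members 103 in the total RNA fit and 182 in the IP fit would have passed a filter of 1 TPM in 3 libraries. The total RNA fit used 9 libraries with the replicate number as a block, and the IP fit 12 libraries with the line and replicate number as a block. Tests were 2-sided, with Benjamini-Hochberg adjustment over all genes and a threshold of 0.05. A fold on this scale understates the change of low genes. After group means were removed, Pearson's r between same-numbered libraries over all genes was 0.636 to 0.933 in total RNA and 0.577 to 0.949 in the IP fit, and the authors' deposited ratios are formed within a number. Numbers 1 and 2 correlated nearly as well (0.581 to 0.814), and either with 3 at most -0.672. The negative sign with 3 follows by construction, since the 3 values of a group sum to 0 once their mean is removed. Nothing says whether replicates were separate cultures, so p-values describe only how these samples spread, which may be technical. The fit was tested on simulated data that held the block by construction. Such data cannot show whether pairing by number was right.

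Named members were the 10 most abundant, up to 6 rises and 6 falls per comparison among called members of at least 1 scaled TPM, and 17 chosen by name; some are not reported here. Members, lists and the design were chosen with earlier results of these data known. Alternatives changed the block, scaling, pseudocount (0.1, 1) and filter, or left out each replicate. Symbols and biotypes came from RefSeq tables (GRCh38.p14) by Ensembl ID or, for some biotypes, current symbol. Figures and tables used Python 3.11.15, pandas 2.3.3 and numpy 2.4.6.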

Additional observations from a re-analysis of the deposited data

Results flagged for a closer look

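The difference between the isoforms passed for 4 members in total RNA and 6 in recovery, by limma with a test of the difference itself. In total RNA, UPF1-1 minus UPF1-2 was -0.355 (log2) for LINC00641, -0.329 for TTC28-AS1, 0.333 for ATP6V0E2-AS1 and 0.349 for LOXL1-AS1. LINC00641 had 0.333, 0.292 and 0.394 scaled TPM in UPF1-1 total RNA and 0.421, 0.548 and 0.779 scaled TPM in UPF1-2 total RNA, and its limma adjusted p was 0.045. ATP6V0E2-AS1 had 1.11, 1.13 and 1.32 scaled TPM in UPF1-1 and 0.709, 0.828 and 0.986 in UPF1-2 total RNA, and LOXL1-AS1 had 1.19, 1.29 and 1.13 in UPF1-1 and 0.868, 0.773 and 0.877 in UPF1-2 total RNA.

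In recovery, UPF1-1 minus UPF1-2 was 0.542 for SETD5-AS1, 0.713 for FGD5-AS1, 0.809 for RAP2C-AS1, 0.941 for TTC28-AS1, 1.02 for OIP5-AS1 and 1.17 for TMEM161B-AS1. The sign was the same in all 3 replicates of each of these 6. TTC28-AS1 appears in both sets, lower in UPF1-1 than in UPF1-2 total RNA and higher in the UPF1-1 IP (2.91, 3.48 and 1.79 scaled TPM) than in the UPF1-2 IP (1.83, 2.06 and 0.960 scaled TPM). Limma adjusted p ranged from 0.018 to 0.048 over the 6, and none passed without the block.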

How the results depend on the processing

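Counts of members were within 1.5 times of those reported under most other settings, with these exceptions. With no replicate block, 0 members were higher and 0 lower in UPF1-1 against GFP total RNA, 0 and 0 in UPF1-1 against UPF1-2 total RNA, 13 higher in the UPF1-1 IP, 8 higher in the UPF1-2 IP, and 0 passed for the isoform difference in recovery. With the block and no scaling these counts were 3 higher and 1 lower, 0 and 0, 173 higher and 6 lower, 171 higher and 6 lower, and 0. With neither the replicate block nor scaling they were 0 and 0, 0 and 0, 163 higher and 4 lower, 159 higher and 5 lower, and 0. A pseudocount of 0.1 gave 1 member higher in UPF1-2 against GFP total RNA. In UPF1-1 against UPF1-2 total RNA 1 member was higher with a pseudocount of 0.1, with medians equal after log2 or with upper quartile scaling, and 4 were lower with the last. The authors' sleuth q-values called 0 members in UPF1-1 against GFP and 0 in UPF1-1 against UPF1-2 total RNA. Leaving out each replicate in turn gave 0 to 7 higher and 0 to 3 lower in UPF1-1 against GFP total RNA, 0 higher and 0 to 1 lower in UPF1-1 against UPF1-2 total RNA, 18 to 35 higher in the UPF1-1 IP, 10 to 24 higher in the UPF1-2 IP and 0 to 6 for the isoform difference. Equal medians after log2 gave 23 higher and 135 lower in the UPF1-1 IP and 15 higher and 147 lower in the UPF1-2 IP, and upper quartile scaling 44 and 91, and 24 and 111.

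Without scaling, with or without the block, named falls changed sign. The UPF1-1 IP then gave 1.66 for LINC00116, 1.96 for LINC00662, 2.37 for NCBP2-AS2 and 1.08 for TRIM52-AS1. The UPF1-2 IP gave 2.37 for ENTPD1-AS1, 2.30 for FGD5-AS1, 1.32 for LINC00116, 1.72 for LINC00662, 2.46 for LINC00998, 2.34 for NCBP2-AS2, 2.27 for OIP5-AS1, 1.38 for RAP2C-AS1, 1.76 for SETD5-AS1, 0.26 for TMPO-AS1, 0.94 for TRIM52-AS1 and 1.99 for TTC28-AS1. These values lie below the all-gene medians of 2.37 and 2.35, except LINC00998 and ENTPD1-AS1 with UPF1-2. The other scalings, pseudocounts, the filter and leaving out replicates reversed no named member, but some of them weakened named calls. In the UPF1-2 IP 4 of 25 weakened with medians equal after log2, 4 without replicate 1 and 2 with upper quartile scaling. In UPF1-1 against GFP total RNA 11 of 12 weakened without replicate 2. The members' low levels limit small differences, since read depth is unknown.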
